A study of Mus musculus with 4 samples.

Results

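Of 145453 distal chromatin regions profiled in single nuclei of mouse mammary epithelium, 556 (0.382%) were selected. They were open in adult luminal progenitor nuclei and in fetal progenitor-like nuclei, and less open in every other large epithelial class. Each region is 1000 bases wide. The members were chosen on their read levels: reads of the listed nuclei were summed into 5 groups of deposited clusters, and levels are given as reads per 1000000 distal reads of the group (CPM). The groups were adult luminal progenitor (L, clusters 3 and 7), fetal progenitor-like (FL, clusters 5 and 9), adult basal (B, clusters 1 and 8), adult mature luminal (M, clusters 2 and 11) and fetal basal-like (FB, clusters 4 and 12). A region was kept where the smaller of its L and FL levels was at least 10 CPM and, with 0.5 CPM added, at least 2 times its level in each of B, M and FB. All nuclei came from wild-type CD1 mice, with 2 fetal libraries at embryonic day 18 and 2 adult libraries at 8 weeks, labelled as biological replicates. Epithelial cells had been sorted as EpCAM-positive and lineage-negative, thawed, and tagged with a barcoded transposase (single-nucleus ATAC-seq). The labels do not say how many animals were pooled, so p-values measure the spread between these libraries.

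Luminal progenitors are cells of the inner mammary layer that can give rise to milk-producing alveolar cells. They carry the receptor tyrosine kinase Kit, and the gene of the ETS factor Elf5 is among those used to mark them. Distal open regions are often enhancers, stretches to which transcription factors bind and from which a promoter some distance away can be controlled. The fetal gland before birth holds cells with features of several later lineages.

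Sequence was at hand for the members that overlap a RefSeq gene-start window (GRCm38.p6, the mm10 build) by at least 200 bases, 14 of the 556. The ETS core AGGAAGT, searched on both strands, was in 5 of these 14 windows (35.7%), against 9.49% of the 2876 windows that overlap any distal region. Those 5 windows are shown because the authors' motif scores for the ETS factors Elf5, Ehf and Elf3 were higher in L and FL than in the other groups. The scores for Ets1 and Spdef, also ETS factors, were not. In FL of fetal replicate 1 these were -0.34 and -0.18, below 0.31 and 0.17 in M of adult replicate 1. The bases before each start are given, with matches to AGGAAGT, to the SOX core ACAATG and to the AP-1 motif TGANTCA in capitals, on either strand. In order, they lie at chr7:143956446-143956695, chr19:7295448-7295686, chr12:72844429-72844678, chr1:154205445-154205694 and chr13:99412827-99413076, and each reads along the minus strand.
Gm34445: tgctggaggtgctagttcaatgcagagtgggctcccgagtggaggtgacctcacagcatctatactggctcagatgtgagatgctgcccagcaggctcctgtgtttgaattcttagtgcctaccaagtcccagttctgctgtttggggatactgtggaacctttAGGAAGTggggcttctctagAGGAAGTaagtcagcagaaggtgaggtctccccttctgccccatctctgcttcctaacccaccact
Mark2: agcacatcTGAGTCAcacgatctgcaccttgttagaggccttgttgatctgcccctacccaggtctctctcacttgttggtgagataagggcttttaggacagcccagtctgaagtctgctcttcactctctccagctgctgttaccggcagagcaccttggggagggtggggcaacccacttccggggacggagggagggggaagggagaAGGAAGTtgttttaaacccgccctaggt
Gm40441: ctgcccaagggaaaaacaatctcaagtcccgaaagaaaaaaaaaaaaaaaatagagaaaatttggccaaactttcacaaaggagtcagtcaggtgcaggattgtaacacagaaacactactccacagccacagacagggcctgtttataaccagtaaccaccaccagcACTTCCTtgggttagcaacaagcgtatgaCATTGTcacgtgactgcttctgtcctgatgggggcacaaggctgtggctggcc
Gm30388: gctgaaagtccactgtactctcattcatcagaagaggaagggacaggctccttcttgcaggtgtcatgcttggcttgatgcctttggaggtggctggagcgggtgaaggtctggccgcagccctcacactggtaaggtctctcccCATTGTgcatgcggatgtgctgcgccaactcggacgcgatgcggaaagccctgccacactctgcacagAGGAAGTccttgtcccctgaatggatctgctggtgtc
6430562O15Rik: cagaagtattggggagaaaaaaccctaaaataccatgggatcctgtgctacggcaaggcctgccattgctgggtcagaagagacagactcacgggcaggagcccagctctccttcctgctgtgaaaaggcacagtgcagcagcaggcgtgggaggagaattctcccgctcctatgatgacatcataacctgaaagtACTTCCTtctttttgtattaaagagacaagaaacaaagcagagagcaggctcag
Mark2 encodes a polarity kinase and the other 4 starts belong to long non-coding RNAs. The member over the Gm34445 start, with 2 ETS matches, had 37.5 CPM in L and 50.6 CPM in FL beside 2.59 CPM in B, 10.7 CPM in M and 16.4 CPM in FB. The member over the Mark2 start had 30.6 and 30.4 CPM in L and FL. SOX matches were in 3 of 14 windows (21.4% against 12.1%) and the AP-1 motif in 1 (7.14% against 13.2%). The NFI motif TTGGCA was in 6 (42.9% against 17.3%) and is not marked in the sequences. The other motifs searched were FOX (letters TGTTTAC), RUNX (letters TGTGGTT), STAT (letters TTCCNGGAA), TEAD (letters GGAATGT), the grainyhead motif (letters AACCNGTT), AP-2 (letters GCCNNNGGC), a motif of the GATA family (letters AGATAAG), C/EBP (letters TTGCNNAA), an E-box (letters CAGCTG) and, by name, p63, CTCF and the oestrogen receptor. None of these was in more than 2 member windows, and between 0% and 19.5% of all 2876 windows held each. With 14 windows, all at annotated starts, these counts describe few members.

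The 4 libraries held 6394631 to 22037784 reads and 882 to 2804 listed nuclei each, and no barcode was listed in more than 1 library. The groups held 1735 (L), 1594 (FL), 1060 (B), 2086 (M) and 815 (FB) nuclei. A level of 10 CPM stood for 40.6 reads in L and 54.9 reads in FL. The group names were checked against reads over gene spans: 12 of 13 progenitor genes (Kit, Elf5, Ehf and others) were higher in L than in B and M, with Itgb3 the exception, and 9 of 13 were higher in FL than in FB, without Itgb3, Itga2, Ltf and Mfge8. None of 12 basal genes was higher in L than in B and M, and 1 of 12 (Id4) was higher in FL than in FB. Of 12 mature luminal genes, none was higher in L than in B and M and 7 were higher in FL than in FB. In these counts FL was set against FB only, so the counts do not tell a progenitor from another luminal identity in FL. The summed value over gene spans of the mature luminal list was 597 in FL beside 1345 in M. That of the progenitor list was 688 beside 338. FL and M also differ in stage, and this was not tested. Of 7 genes of stromal, endothelial and blood cells, 2 were higher in L and 1 in FL. More than 1 nucleus can share a barcode in this protocol, and no doublet caller was run.

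The selected regions took 1.48% of the distal reads of L and 1.18% of those of FL, against 0.230% in B, 0.242% in M and 0.336% in FB. The median member had 21.8 CPM in L and 17.3 CPM in FL beside 3.02, 3.24 and 4.81 CPM in B, M and FB, values that the selection fixed. A total of 17196 regions reached the minimum in both progenitor groups. Of these, 3720 also met the ratio to B, 5678 the ratio to M and 2469 the ratio to FB, so the fetal basal-like group removed most. FB was the highest of the other groups for 286 members, M for 153 and B for 117. The median ratio of the smaller progenitor level to the highest other group was 2.57, and 65 members had a ratio of at least 4. The member nearest the minimum had 10.0 CPM and the region just outside it 9.86 CPM, and the ratios on either side of the limit were 2.00 and 1.998.

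**Figure D1:**
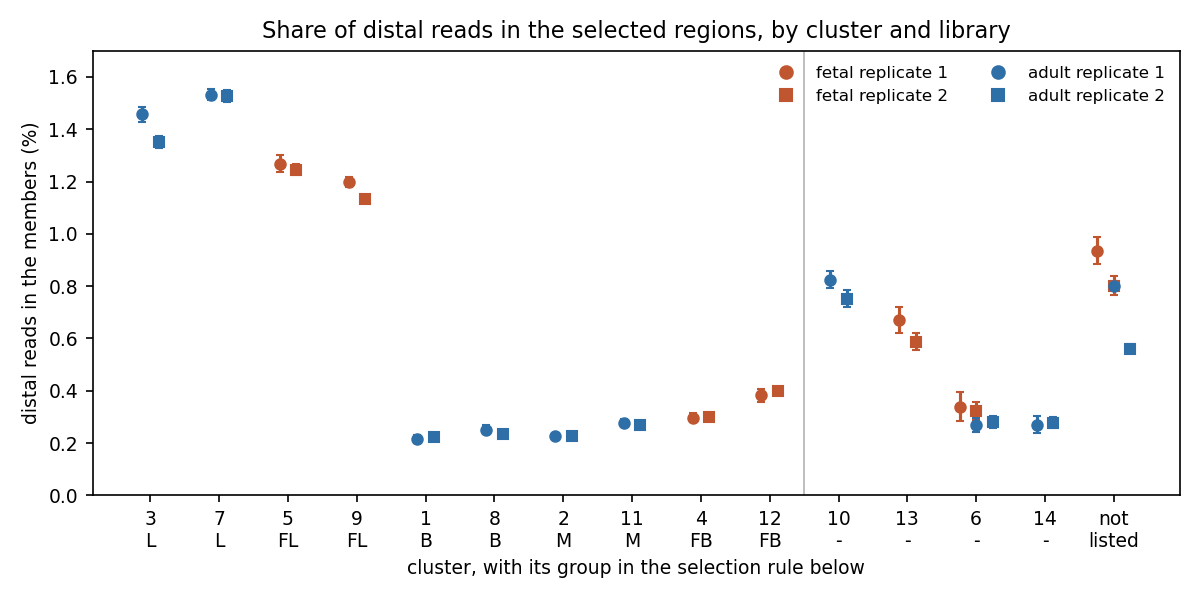
Percent of distal reads that fell in the 556 selected regions (y axis) in each deposited cluster (x axis, with its group in the rule), by library; bars are exact 95% binomial intervals. Clusters 3, 7, 5 and 9, which chose the regions, lie at 1.13 to 1.53%, and of the clusters outside the rule 10 and 13 lie at 0.587 to 0.825%.

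The other 4 clusters took no part in the selection, and the members were open to different degrees in them. Cluster 10, of 144 mostly adult nuclei, gave 0.825% and 0.750% of its distal reads to the members in adult replicates 1 and 2. Its median member had 11.5 CPM, above the basal and mature luminal groups and below L. Cluster 13, of 114 mostly fetal nuclei, gave 0.670% and 0.587% in fetal replicates 1 and 2, with a median of 6.0 CPM. Clusters 6 and 14 gave 0.268 to 0.337% over the libraries, within the range of B, M and FB clusters (0.216 to 0.397%). Their median member had 0 reads, at 483987 and 339329 distal reads in all. Intervals on these shares cover counting error only, since they treat reads as independent and leave out the spread between nuclei and between libraries. The reads carried no molecular identifiers.

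Within the progenitor groups the members were spread over both of their clusters. The median log2 ratio of cluster 3 over cluster 7 was -0.10 (-0.07 and -0.17 in the adult replicates), close to -0.09 for the regions at the minimum. At least 2-fold higher were 22 members in 3 and 34 in 7. For cluster 5 over cluster 9 the median was 0.11 (-0.03 and 0.10 in the fetal replicates), against -0.05 for the regions at the minimum. At least 2-fold higher were 43 members in 5 and 56 in 9. No such counts over other regions are given, so nothing particular to the members is read from them. Both regions at Plet1, which encodes a glycolipid-anchored surface protein, were among the uneven ones: the region chr9:50502869-50503868 had a log2 ratio of -1.85 for 3 over 7 and -2.81 for 5 over 9. These ratios are descriptions, because the clusters were made from the same reads.

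The selection was repeated on single replicates to see how the ratio held in reads it had not used. Replicate 1 libraries alone selected 696 regions, and in replicate 2 their median ratio was 1.58 against 2.76 where chosen. Of the 696, 228 (32.8%) reached a ratio of 2 in replicate 2. The share was 2.79% of the 16000 regions that met the minimum in replicate 1, a set that holds the 696. Replicate 2 libraries alone selected 575 regions, whose median ratio in replicate 1 was 1.79 against 2.53. Of these, 240 (41.7%) were at 2 or more, against 3.49% of the 17082 regions that met the minimum in replicate 2. The whole rule was met in both replicates by 199 regions. The regions and clusters themselves had been defined by the authors on all libraries, so the replicates were not fully separate.

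**Figure D2:**
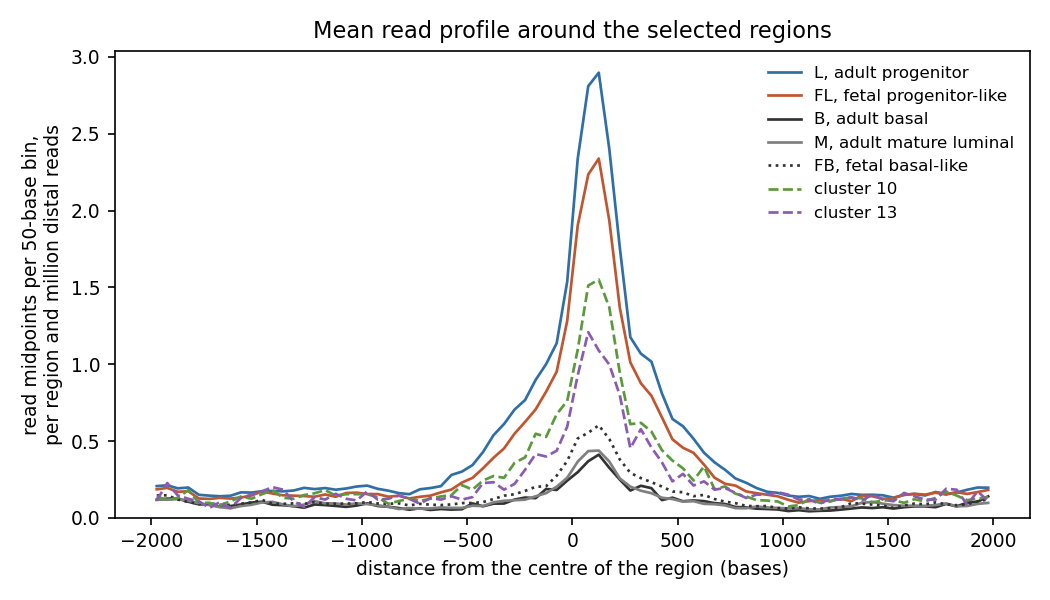
Mean number of read midpoints per 50-base bin, per region, scaled to 1000000 distal reads (y axis), at distances up to 2000 bases from the region centre (x axis) for the 556 members. L and FL rise 11.2-fold and 9.89-fold from the edges to the centre, B, M and FB 2.91 to 4.10-fold.

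The mean profile around the members had its highest bin near the centre in all 5 groups, and its height in each group follows from the selection. Read midpoints within 200 bases of the centre stood over those at 1500 to 2000 bases by 11.2 times in L and 9.89 times in FL. The same measure was 2.91 in B, 3.33 in M and 4.10 in FB. These are means over the 556 regions, and single members had 0 reads in B, M or FB. Cluster 10 stood at 8.11 and cluster 13 at 5.80. In the 5 groups the highest bin lay 100 to 150 bases to the right of the region centre, and the deposited reads, 163 to 200 bases long, carry no strand.

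The 10 members with the highest smaller progenitor level lay near genes of several kinds. Their levels in every library of L and FL were above every library of B, M and FB. The rule required this order of the pooled reads, so it is not a separate result.
The region chr15:58211433-58212432, inside Fbxo32 (a ubiquitin ligase subunit) and 2960 bases from its start, had 124 and 67.8 CPM in L of adult replicates 1 and 2 and 92.5 and 73.2 CPM in FL of fetal replicates 1 and 2. Its highest value outside the progenitors was 38.4 CPM, in FB of fetal replicate 2. The region chr5:32182805-32183804, 46832 bases from the start of Fosl2 (an AP-1 subunit), had 82.7 and 93.6 CPM in L and 94.3 and 73.5 CPM in FL. It was also the member with the highest M level, 40.6 and 33.7 CPM in the adult replicates. The region chr16:97632441-97633440 had Tmprss2, a membrane-bound serine protease gene, as its nearest coding start. It had 62.1 and 61.9 CPM in L and 70.0 and 59.5 CPM in FL. The stages overlapped in these 3 regions. The region chr9:31838917-31839916, 73869 bases from the homeobox gene Barx2, had 58.1 and 64.9 CPM in L and 87.5 and 96.8 CPM in FL, with the fetal libraries above the adult ones. It was nearly empty in M, at 0.811 and 0.592 CPM. The region chr15:38398549-38399548, 98337 bases from Klf10, a zinc-finger factor induced by TGF-beta, had the reverse order, 119 and 104 CPM in L and 63.7 and 56.3 CPM in FL. The other 5 lay nearest to Mast4, Pdzrn3, Tsc22d1, Fam120a and Prickle1, with L and FL values between 45.8 and 68.1 CPM in all libraries and at most 30.1 CPM in any other group.

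**Figure D3:**
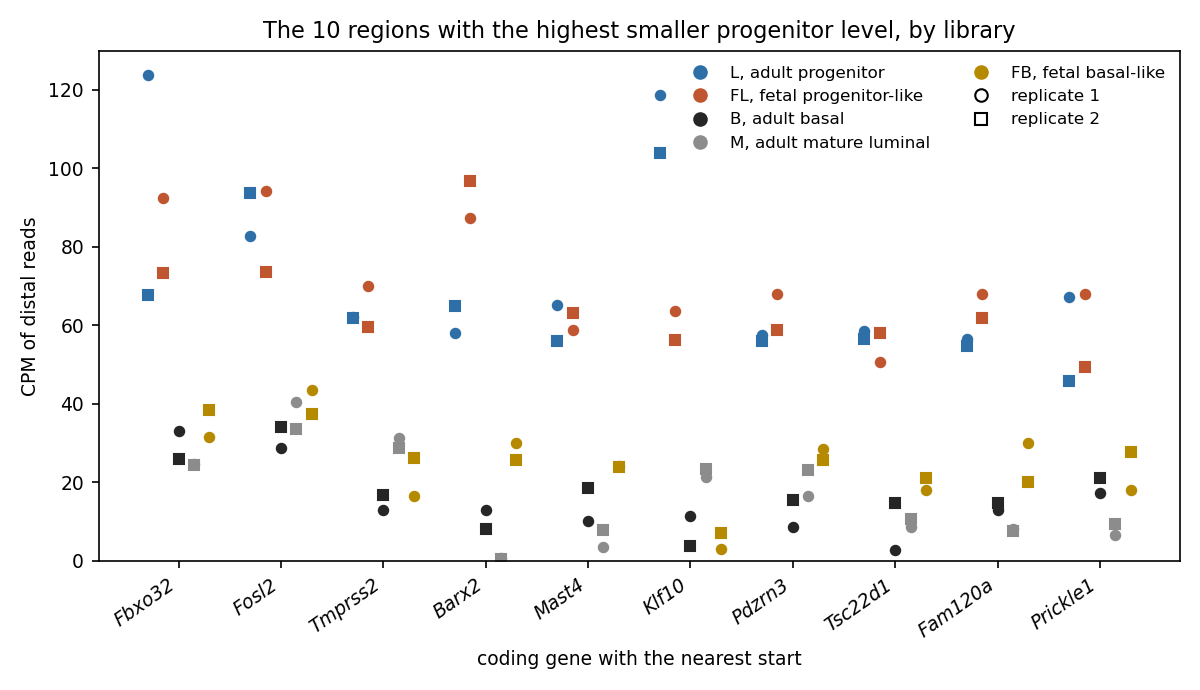
CPM of distal reads (y axis) of the 10 members with the highest smaller progenitor level, named by the coding gene with the nearest start (x axis), in each library of the 5 groups. All L and FL points lie at 45.8 CPM or above and all B, M and FB points at 43.6 CPM or below. The rule chose the regions for this order in the pooled reads.

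Levels relative to the other groups were greatest at Kit. The region chr5:75469534-75470533, 104954 bases upstream of the Kit start, had 53.1 and 36.6 CPM in L and 18.1 and 29.6 CPM in FL. It was at 0 in both B and both FB libraries, and at 0.811 and 0 CPM in M. With the added 0.5 CPM its ratio was 32.0, the highest of the members, and a ratio against groups at or near 0 rests on that added value. Cluster 10 had 16.5 CPM there, and clusters 6, 13 and 14 had 0.

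Members lay at a median of 27746 bases from the nearest coding gene start, against 32288 for all distal regions and 24412 for the regions at the minimum. Inside a coding gene lay 271 (48.7%), against 53.3% of all distal regions, and 53.1% of the regions at the minimum. Within 10000 bases of a start lay 132 (23.7%), more than the 21.9% of all distal regions and fewer than the 28.7% of the regions at the minimum. More than 100000 bases from any coding start lay 100 members (18%, against 22.0% of all distal regions and 15.3% of those at the minimum). The nearest starts belonged to 513 genes, of which 473 had 1 member, 37 had 2 and 3 had 3 (Pdzrn3, Prickle1 and Irf2bp2). Another member lay within 50000 bases of 62 members (11.2%) and within 10000 bases of 18.

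Few members lay near the listed genes of the mammary lineages. Of the 556, 5 (0.899%) were within 100000 bases of the start of 1 of 13 progenitor genes, against 0.230% of all distal regions and 0.291% of the regions at the minimum. These 5 lay at 4 of the 13 genes, and the region at Kit was just beyond the limit. At Ehf, an ETS factor of epithelia, chr2:103274467-103275466 had 43.1 and 38.0 CPM in L and 13.7 and 19.0 CPM in FL, and the region chr2:103293876-103294875, closer to the start, had 11.5 and 11.2 CPM in L and 12.5 and 16.1 CPM in FL. At Aldh1a3, a retinaldehyde dehydrogenase used as a progenitor marker, chr7:66444510-66445509 had 34.1 and 27.8 CPM in L and 31.9 and 29.1 CPM in FL. Its stages overlapped, and B, M and FB stayed at 10.8 CPM or below. At Wfdc18, which encodes a small secreted protein, chr11:83716646-83717645 had 49.1 and 35.1 CPM in L and 9.37 and 11.2 CPM in FL, so it was among the members closest to the minimum. The region chr7:79231827-79232826, 83266 bases from the milk fat globule gene Mfge8 but nearer to Abhd2, had 25.6 and 27.8 CPM in L and 26.2 and 20.8 CPM in FL.

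The milk list had 1 member near 13 genes, at chr11:100898835-100899834, which lies inside Stat3, 38850 bases from the start of Stat5a and 48753 from that of Stat5b, the transcription factors that carry the prolactin signal. It had 37.6 and 41.4 CPM in L and 22.5 and 26.5 CPM in FL, with 18 and 8.43 CPM in FB. No member lay near a casein gene, Wap, Lalba or Prlr. The pan-luminal list had 1 member, 3610 bases from the tight junction gene Cldn3 (50.02 CPM in L and 55.0 CPM in FL), the defence list 1 near the complement gene C3, the Notch list 1 near Notch1, the ErbB list 1 near the ligand gene Tgfa, the ETS and grainyhead list 2, both at Ehf, and the basal list 1 in Mylk, myosin light chain kinase. The mature luminal list (12 genes) and the stromal list (7 genes) had 0. Counting only the nearest coding gene, the mature luminal list had 1 member (0.180%) and the defence list 0. A single member is 0.180% of the 556. The shares of all distal regions near these lists were 0.0963% (stromal) to 0.283% (ETS and grainyhead), and those of the regions at the minimum 0.0640% (stromal) to 0.5001% (pan-luminal), so counts of 0 to 2 members are near these shares. Of all 21896 coding genes, 1315 (6.01%) had a member within 100000 bases.

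The authors' motif deviation scores per nucleus measure how far reads at all regions with a motif depart from the mean nucleus, and they were not restricted to the members. For Elf5 the mean score was 1.79 and 1.60 in L of the adult replicates and 0.18 and 0.28 in FL of the fetal replicates, against -0.96 to -0.63 in B and M and -0.98 and -1.01 in FB. Elf3 and Ehf likewise scored above 0 in L and FL and below 0 in B, M and FB, whereas the ETS motifs Ets1 and Spdef did not (-0.34 and -0.18 in FL of fetal replicate 1). Sox9 scored 1.11 and 1.35 in FL and 1.48 and 1.36 in FB but -0.02 and 0.12 in L, and Nfix 1.67 and 2.32 in FL against -0.14 and -0.16 in L. FL was not uniform in these scores. In clusters 5 and 9 Sox9 scored 1.77 and 0.98, Nfix 2.67 and 1.74, and Fos -6.04 and -1.06. Nfkb1 scored 1.41 and 1.41 in L and -1.23 and -1.39 in FL. These scores describe nuclei clustered on the same reads and were not tested.

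The levels of the 2 stages were compared by edgeR's quasi-likelihood test over all 59884 distal regions with enough reads, as fetal (clusters 5 and 9) minus adult (3 and 7) over 2 libraries each. The rule set a floor under the same reads in both stages, which limits how far a member can differ, so the counts are given as a description beside those of other regions. All 556 members were tested and 100 (18%) passed an adjusted p of 0.05, against 25.2% of all tested regions and 21.5% of those at the minimum. Of these, 92 were higher in the adult (16.5%, against 13.7% and 14.5%) and 8 in the fetus (1.44%, against 11.5% and 7.01%). The median log2 difference of the members was -0.22, against 0.03 over all tested regions, and 482 members (86.7%) lay within 2-fold, against 60.6%. All tested regions include those below the minimum, and neither value is given for the regions at the minimum. The medians were -0.10 and -0.05 without fetal replicate 2, and with cluster 5 alone as the fetal group, a comparison added after the data were seen, their order turned (-0.02 for the members and -0.11 for all). Without fetal replicate 2, 56 members passed (10.1%, 43 higher in adult and 13 in fetal), against 20.5% of all regions tested in that fit. DESeq2 called 65 (11.7%, 64 and 1), against 17.7%. With cluster 9 alone 66 passed (11.9%, 61 and 5), against 21.8%. With cluster 5 alone 111 passed (20.0%, 79 and 32), against 32.1%. Without the low-read filter 92 members passed (16.5%, 87 and 5), against 11.2% of 144002 regions, so the order turned. With a mean of at least 50 reads, 87 of 259 tested members passed (33.6%, 73 and 14), against 39.9%. The comparison with all regions thus depends on the read filter.

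**Figure D4:**
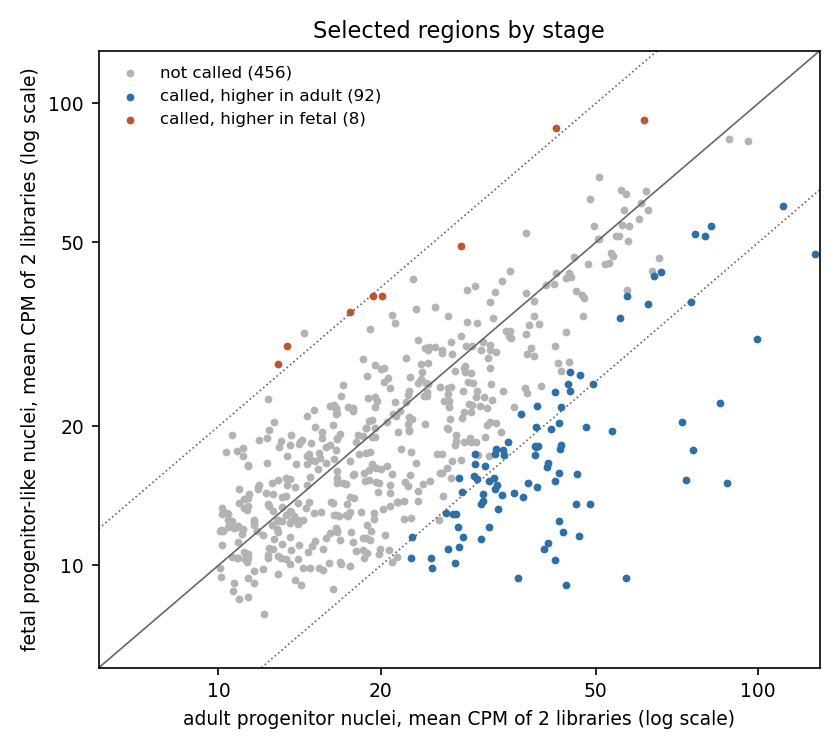
Mean CPM of the 2 fetal libraries (y axis) against the 2 adult libraries (x axis), both on log scales, for each of the 556 members; the solid line marks equal levels and the dotted lines 2-fold differences. The 92 members called higher in the adult reach farther from the line than the 8 called higher in the fetus.

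The members with large called differences were taken from those without overlap between stages. The 5 largest adult-high differences were at these regions. The region chr3:110148335-110149334 in Ntng1, a netrin-like membrane protein gene, had 10.6 and 19.5 CPM in the fetal replicates and 102 and 73.6 CPM in the adult ones (log2 -2.49, SE 0.27, edgeR adjusted p 6.42e-06). The region chr9:107315232-107316231, 19072 bases from Cish, a STAT5-induced inhibitor of cytokine signalling, had 5.00 and 13.8 against 58.6 and 55.1 CPM (log2 -2.47, SE 0.32). The region chr13:5614405-5615404, 246585 bases from the zinc-finger gene Klf6, had 15.0 and 15.6 against 70.7 and 76.1 CPM (log2 -2.30). Of the 5, Cish, Klf6 and Ntng1 moved most with the fetal reads used: log2 at Klf6 was -1.81 with cluster 9 alone and -4.69 with cluster 5 alone, at Ntng1 -2.17 and -3.16, and at Cish -3.37 without fetal replicate 2. The region chr6:17409282-17410281, 54176 bases from Met, the receptor for hepatocyte growth factor, had 7.5 and 10.6 against 44.1 and 43.9 CPM (log2 -2.25). The region chr18:32431544-32432543, inside the membrane-bending gene Bin1 with Gm35060 as the nearest start, had 18.1 and 17.4 against 72.2 and 79.5 CPM (log2 -2.14). All 5 passed under every alternative tried. The region at Wfdc18 (log2 -2.04, SE 0.31, edgeR adjusted p 0.000158) and the distal of the pair at Ehf (log2 -1.31, SE 0.29, edgeR adjusted p 0.00266) were also called, and so was the region upstream of Kit (log2 -0.89, SE 0.28, edgeR adjusted p 0.0268), which was lost without fetal replicate 1, without adult replicate 1, with cluster 9 alone, without TMM and in DESeq2.

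The fetal-high differences were smaller, and each of the 5 largest lost its call when 1 of the adult libraries was left out. The region chr12:79674819-79675818 in Rad51b, a recombination repair gene, had 93.7 and 83.6 CPM in the fetal replicates and 53.1 and 31.2 CPM in the adult ones (log2 1.02, SE 0.23, edgeR adjusted p 0.0034), and was lost only without adult replicate 2. The region chr17:34955428-34956427, 3311 bases from the heat shock gene Hspa1b, had 35.6 and 24.1 against 17.5 and 9.26 CPM (log2 1.08, SE 0.36). The region chr11:5325946-5326945 in Znrf3, with Kremen1 as the nearest start, had 30.6 and 23.9 against 15.5 and 10.2 CPM (log2 1.01). Both genes encode membrane proteins that dampen Wnt signalling. The region chr1:130819978-130820977, 6207 bases from Pigr, the receptor that carries immunoglobulin A into milk, had 36.9 and 39.7 against 24.1 and 14.6 CPM (log2 0.95). The region chr8:74924601-74925600, 51926 bases from the homeobox gene Isx, had 41.9 and 28.8 against 13.5 and 21.5 CPM (log2 0.93). The adjusted p in edgeR was 0.036 for Hspa1b, 0.0403 for Kremen1, 0.024 for Pigr and 0.0389 for Isx, and DESeq2 called none of these 4. The call was lost without adult replicate 1 at Isx and without adult replicate 2 at the other 3, and without fetal replicate 1 at all but Pigr. With cluster 9 alone as the fetal group it was lost at Hspa1b, Isx and Pigr, and at Kremen1 with cluster 5 alone and without the low-read filter. At Hspa1b the log2 difference was 0.23 with cluster 9 alone and 2.34 with cluster 5 alone.

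**Figure D5:**
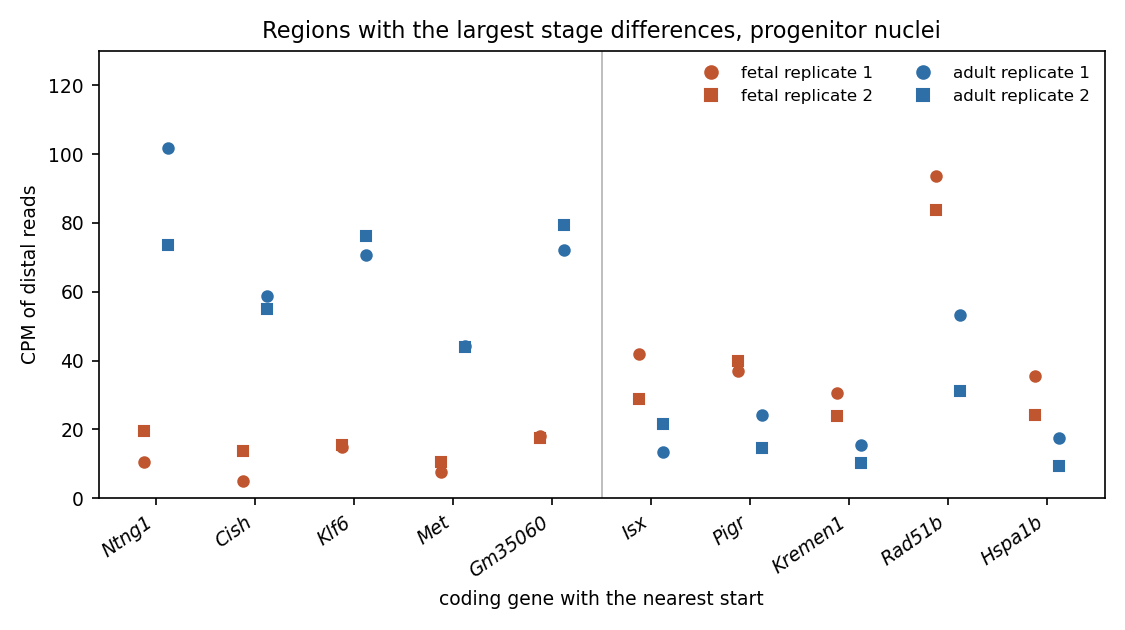
CPM of distal reads (y axis) in each fetal and adult library for the 5 members with the largest adult-high (left of the line) and the 5 with the largest fetal-high differences (right), named by the coding gene with the nearest start (x axis). On the left the adult points lie at 43.9 to 102 CPM and the fetal ones at 5.00 to 19.5 CPM; on the right the gap is smaller.

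The 10 highest members were ranked on the smaller of their L and FL levels, which favours regions of like level in both stages, so their stage differences are values only. Of these 10, the regions near Klf10 (log2 -0.94, SE 0.18, edgeR adjusted p 0.00118) and near Barx2 (log2 0.55, SE 0.19, edgeR adjusted p 0.039) passed, and the other 8 did not; Barx2 did not pass without adult replicate 1 or 2, without the low-read filter or in DESeq2. The log2 differences of the other 8 ran from -0.27 (Fbxo32, SE 0.23) to 0.17 (Fam120a, SE 0.20). The region near Aldh1a3 had -0.07 (SE 0.27), that near Mfge8 -0.25 (SE 0.30) and that inside Stat3 near Stat5a -0.71 (SE 0.26, edgeR adjusted p 0.0513). An adjusted p above 0.05 does not show equal levels.

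Promoter reads took no part in the selection. The authors' promoter list held a region at the start of 350 of the 513 nearest genes. In L and FL their smaller level was above B, M and FB in 50 (14.3%), against 8.39% of all 19204 promoter regions, and at least 2 times those levels in 2 (0.571% against 0.458%). The median ratio was 0.79 against 0.67. In the stage test 338 were tested and 46 (13.6%) passed in edgeR, against 13% of all promoter regions: 25 higher in the adult (7.40%, against 6.58%) and 21 higher in the fetus (6.21%, against 6.4%). These shares were close to the background. Fewer passed in other fits, among these promoters and among all: 20 (6.06%, against 6.21% of all tested) without fetal replicate 2, 25 (7.37% against 7.30%) without fetal replicate 1, 29 (8.53% against 8.80%) without adult replicate 1 and 17 (5.03% against 5.45%) in DESeq2.

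Examples higher in the adult were the promoters of Trf, the iron carrier transferrin (4.06 and 17.5 reads per 1000000 promoter reads in the fetal against 78.6 and 68.0 in the adult replicates, log2 -2.58, SE 0.33, edgeR adjusted p 1.48e-12), and of Anxa1, a phospholipid-binding protein (42.7 and 49.2 against 119 and 136, log2 -1.49). Higher in the fetus were those of Ptn, the growth factor pleiotrophin (70.1 and 113 against 23.4 and 31.2, log2 1.74, SE 0.26, edgeR adjusted p 9.85e-09), Scd2, a fatty acid desaturase (63 and 84.6 against 24.3 and 29.5, log2 1.44), and the transcription factor Tbx3 (333 and 353 against 163 and 235, log2 0.75). All 5 passed under every alternative. They were picked after their values were seen. At Trf the size rests on few fetal reads, with log2 -4.15 without fetal replicate 2 and -1.54 with cluster 5 alone. At Pigr the promoter was called higher in the adult and the nearby member higher in the fetus. The promoter had 0 and 8 reads in the fetal and 21 and 26 in the adult replicates (log2 -3.03, SE 0.72, edgeR adjusted p 0.000697). At these counts the size is poorly set: it was -2.26 with cluster 5 alone, where the call was lost, and without fetal replicate 2 the fetal group has 0 reads.

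The authors' co-accessibility scores, which measure how far 2 regions are open in the same nuclei, were taken at 0.25 or more as a link. Links were held by 236 members (42.4%), against 14.6% of all distal regions and 34.9% of the regions at the minimum. With promoters as partners, 33 of 540 members paired with any promoter (6.11%) reached 0.25, against 7.73% of the minimum set and 2.35% of all. The score depends on the same nuclei as the selection, so it is a description. Highest of the 33 was the region near Hspa1b, at 0.59 with a promoter region without a listed gene start. Near Klf10 the best partner was the promoter of Gm35248 (0.42). Near Fbxo32 it was a promoter region 226300 bases away (0.29), also without a listed start. How many of the 33 scored best with the promoter of their nearest gene is not given, and the examples that follow were picked. The region upstream of Kit scored 0.51 with the Kit promoter, the region near Barx2 0.44 with the Barx2 promoter 73674 bases away, the region near Cldn3 0.33 with the Cldn3 promoter and both regions at Plet1 0.30 and 0.29 with its promoter. The region near C3 scored 0.28 with the C3 promoter although Vav1 is nearer. The region chr11:83605977-83606976 scored 0.46 with the Wfdc18 promoter 102308 bases away, whereas the member next to Wfdc18 scored highest with the promoter of the chemokine gene Ccl9 (0.44). Of the 117 scored pairs of members, 38 (32.5%) reached 0.25, against 4.28% of the pairs of regions at the minimum and 0.551% of all distal pairs. All 117 scored above 0, against 65.5% and 26.3%, and the median was 0.19 against 0.01 and 0. Members were selected for a shared pattern over the same nuclei, so nothing is read from this. The highest pair was the 2 regions at Plet1 (0.73).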

How the data were processed

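Single-nucleus ATAC-seq of 2 fetal and 2 adult libraries was used as the authors deposited it: read positions with nucleus barcodes, lists of barcodes kept as nuclei, distal and promoter regions, and cluster numbers. Bowtie2, MACS2, bedtools and the build mm10 are named in the submitters' processing notes, with no role or version, and the clustering method is not given in the sources used here. The deposited read count per nucleus equalled the reads carrying its barcode in 7846 of 7846 nuclei. The motif deviation score (chromVAR) and the co-accessibility score (Cicero, over all nuclei pooled) are the authors' deposited values, named by their files, with settings not given in the sources used here.

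A read was counted in each region it overlapped by at least 1 base, and counts were summed per library and cluster. The rule of selection and the gene lists were chosen with earlier results of these data known. Stage differences were tested on counts with edgeR 4.0.16 (quasi-likelihood, TMM, R 4.3.3), over regions averaging 10 or more reads a library, adjusted by Benjamini-Hochberg over all tested regions at 0.05. DESeq2 1.42.0 was an alternative. The scripts were tested on simulated data. Fetal nuclei in the progenitor clusters of the adult, and the reverse, entered the selection but not the stage test.

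Regions named were the 10 with the highest smaller progenitor level, the highest member near each progenitor or milk gene, and the 5 largest called differences in each direction without overlap. Others were named after their values were seen. Gene starts came from RefSeq (GRCm38.p6): of 21896 coding genes, 17491 had a start window, 2224 took the gene end that lies in a promoter region, and for 2181 either end was used. The planned central bases of the highest regions were replaced by RefSeq start windows, since no genome was used here. Samples were grouped by the stage in their labels.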

Additional observations from a re-analysis of the deposited data

Results flagged for a closer look

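Reads of barcodes that the authors did not list as nuclei entered no comparison, and the members' share of them was above that in the basal and mature luminal groups. The members took 0.936% and 0.802% of the distal reads of such barcodes in fetal replicates 1 and 2, and 0.8% and 0.561% in adult replicates 1 and 2. The listed nuclei of B, M and FB gave 0.230%, 0.242% and 0.336%, and those of L and FL 1.48% and 1.18%. The unlisted shares thus lay between those of the progenitor groups and those of the others. The listed nuclei of a library mix these groups, and their joint share is not given here. No excess in the unlisted reads is therefore read from this. The source of these reads was not tested.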

How the results depend on the processing

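The number of members followed its limits: a minimum of 5 CPM gave 1162 regions, a minimum of 20 CPM 181, a ratio of 3 176, and levels relative to all reads in place of distal reads, which raise the minimum, 102. Leaving out libraries gave 555 to 729 regions, of which 307 to 460 were among the 556. For the stage difference of the members, 66 passed with cluster 9 alone (11.9%, against 21.8% of all regions tested in that fit) and 65 in DESeq2 (11.7% against 17.7%), in place of 100 (18% against 25.2%). Without the low-read filter 92 passed (16.5% against 11.2%), so the order against all regions turned. With a mean of at least 50 reads, 87 of 259 tested members passed (33.6% against 39.9%). Leaving out 1 library gave 56 to 113, or 10.1% to 20.3%, against 20.3% to 22.9% of all. Among the nearest promoters 46 passed, against 24 with a mean of at least 50 reads (9.23% of 260 tested, against 10.4% of all promoters), 28 with cluster 9 alone (8.41% against 8.95%), 29 with cluster 5 alone, added after the data were seen (9.06% against 8.01%), and 17 in DESeq2 (5.03% against 5.45%). Leaving out 1 library gave 20 to 36, or 6.06% to 10.6%, against 6.21% to 9.72%. The cause was not tested. Without TMM the median log2 difference of all distal regions moved from 0.03 to 0.13, and 11 members were called higher in the fetus and 72 in the adult (14.9% in all, against 25.2% of all regions). With the replicate block 107 members (19.2%, against 25.1% of all regions) and 45 promoters (13.3% against 12.5%) passed. Deviations of same-numbered libraries correlated at 0.000998 over distal and 0.0275 over promoter regions, so the numbers were not taken as pairs. Of 119 alternatives for the 10 regions named for their stage difference, 102 kept the call, 17 lost it and 0 reversed. The share of members near a progenitor gene was 0.719% within 50000 bases and 0.899% by the nearest coding gene, against 0.899%. Of the other lists, the nearest coding gene alone took the defence list from 0.180% to 0% and the mature luminal list from 0% to 0.180%. The comparison of motifs in whole and central region sequences was not run. Depth limits single regions in the small clusters, where many members had 0 reads.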
